A study of Mus musculus with 82 samples.

Results

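MicroRNAs (miRNAs) were compared between mice that drank alcohol and mice that drank water, in synaptoneurosomes (SN) of the extended amygdala. The comparison used the 20 SN arrays among the 82 samples of the series, 8 from alcohol mice and 12 from control mice, and each array was a different mouse. All mice were female C57BL/6J, 2 months old and housed singly. Alcohol mice chose for 30 days, 24 h a day, between a bottle of 20% ethanol and a bottle of water, so each mouse set its own intake; intakes were not used here. Control mice had water in both bottles. To obtain SN, homogenate was forced through a 100 µm filter, next a 5 µm one, and pelleted at 14000 g for 20 min, which is a fraction enriched in pinched-off synapses rather than pure synapses. Total homogenate (TH) of the same 20 mice, kept before filtering, gave another 20 miRNA arrays, which are used here only beside the SN values.

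A miRNA is a short RNA that a hairpin precursor releases and that guides the Argonaute protein to messenger RNAs, which are then repressed. Pairing rests mainly on the seed, the bases from the second to the eighth, so miRNAs with one seed share many targets. Neurons carry part of their miRNAs into dendrites, where some, such as miR-134 and miR-138, are known to restrain the translation of proteins that shape dendritic spines. The extended amygdala takes part in the negative emotional state of alcohol withdrawal, and several miRNAs, among them miR-9, miR-206 and miR-411, have been linked to alcohol in rodents.

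The sequences below are those of 8 of the 11 miRNAs that had a mean over 4 on the log2 scale and an unadjusted p under 0.05, with some relatives of the same seed. miR-187, miR-467a and miR-3099 are named only. Capitals mark the seed, bases 2 to 8. They are RefSeq mature sequences of build GRCm38.p6, written 5′ to 3′.
miR-708 (chr7:96249450-96249472, + strand): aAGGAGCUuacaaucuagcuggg
miR-28 (chr16:24827868-24827889, + strand): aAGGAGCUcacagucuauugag
miR-137 (chr3:118433901-118433923, + strand): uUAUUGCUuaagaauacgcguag
miR-411 (chr12:109710190-109710210, + strand): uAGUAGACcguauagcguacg
miR-106b (chr5:138165787-138165807, - strand): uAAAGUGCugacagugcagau
miR-93 (chr5:138165574-138165596, - strand): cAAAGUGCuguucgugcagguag
miR-17 (chr14:115043684-115043706, + strand): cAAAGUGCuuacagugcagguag
miR-20a (chr14:115044183-115044205, + strand): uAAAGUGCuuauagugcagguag
miR-92a (chr14:115044476-115044496, + strand and chrX:52741854-52741874, - strand): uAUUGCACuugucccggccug
miR-92b (chr3:89227126-89227147, - strand): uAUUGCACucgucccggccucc
miR-25 (chr5:138165332-138165353, - strand): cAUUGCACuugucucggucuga
miR-1843b-5p (chr1:159340362-159340382, + strand): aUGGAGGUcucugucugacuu
miR-5128 (chr2:37688212-37688234, - strand): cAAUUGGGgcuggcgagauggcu
miR-92a and miR-92b were the same at 19 of 21 positions, and miR-92a and miR-25 at 18 of 21. miR-106b matched miR-17 and miR-20a at 18 of 21 positions each and miR-93 at 16 of 21. The miR-708 and miR-28 sequences shared their seed and 16 of 22 positions. Probes for such close relatives can take up each other's RNA, so their probe sets are not fully separate measurements.

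The arrays carried 1111 probe sets for mouse mature miRNAs, 332 of them for star strands, the usually scarcer arm of a hairpin. Values were log2 signals, and 246 probe sets had a mean over 4 across the 20 SN arrays, 35 of them star strands. The other 865 lay nearer the floor of the array. On either side of that border were miR-1941-5p, with a mean of 3.97, and miR-181a-1-star, with a mean of 4.01. miR-124, the most abundant miRNA of neurons, had the highest mean of all, 13.4. Between 232 and 255 probe sets were over 4 on each array, and array medians were 0.82 to 1.00.

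No miRNA differed between alcohol and control mice in SN after adjustment. By limma with Benjamini-Hochberg adjustment over the 1111 probe sets, 0 (0%) had an adjusted p under 0.05, and the smallest adjusted p was 0.426. At an unadjusted p under 0.05 there were 65 probe sets (5.85%), 23 higher (2.07%) and 42 lower (3.78%) in alcohol, where 55.55 of 1111 would be reached with no difference at all. Among the 246 probe sets over 4 there were 11 (4.47%), 4 higher (1.63%) and 7 lower (2.85%), against 12.3 by the same reckoning, and the smallest adjusted p was 0.773. Of the 865 nearer the floor, 54 (6.24%) had an unadjusted p under 0.05. The counts of small p-values were thus near what the threshold alone gives, and most of them lay in dim probe sets.

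**Figure D1:**
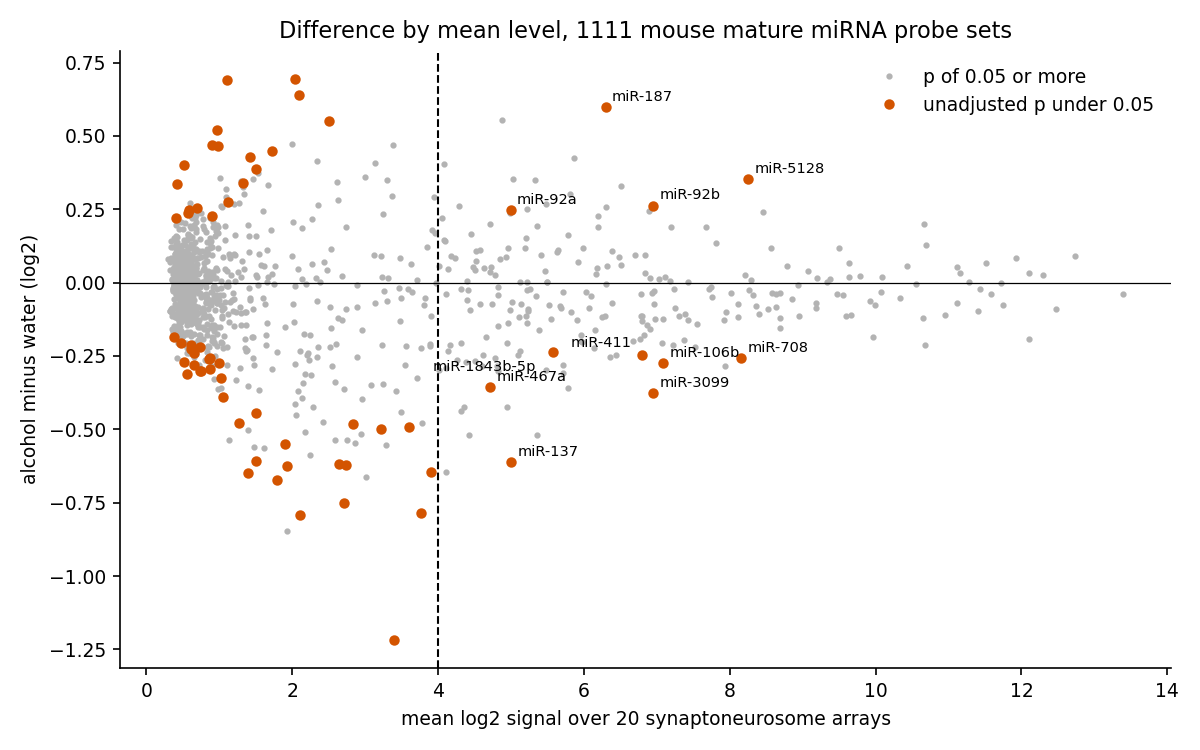
Each point is 1 of the 1111 mouse mature miRNA probe sets, with its mean log2 signal over the 20 SN arrays on the x axis and the difference alcohol minus control (log2) on the y axis; the dashed line marks a mean of 4. Orange points have an unadjusted p under 0.05: 54 of the 65 lie at a mean of 4 or less, and the 11 over 4 are named.

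Sizes were small where the signal was well above the floor. The differences of the 246 probe sets ran from -0.65 to 0.60 on the log2 scale. Only 6 were larger than 0.5 in size and 0 were larger than 1. The 95% confidence interval of the difference had a median width to either side of 0.28, and it lay within 0.5 of 0 on both sides for 169 probe sets (68.7%) and within 1 for 238 (96.7%). A 2-fold difference, 1 on the log2 scale, was therefore outside the interval of nearly all of them. For no probe set did the 8 alcohol mice and the 12 control mice form separate ranges (0 of 1111).

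miR-137, a miRNA enriched in neurons that acts on dendrite growth, had the largest difference among the 7 lower ones. Its SN level in the 8 alcohol mice was 3.33 at the lowest, 4.63 at the median and 5.53 at the highest, and in the 12 control mice 4.26, 5.23 and 5.95. Alcohol mice 6, 5 and 1 were below every control, and the other 5 were inside the control range. The difference was -0.61 (SE 0.24, limma p = 0.0192, adjusted p = 0.773).

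miR-708, which lies in an intron of Tenm4, a teneurin gene of neuronal wiring, had the smallest p of the lower ones. Alcohol mice had 7.77, 7.98 and 8.28 (lowest, median, highest), and control mice 7.77, 8.29 and 8.52. All 8 alcohol mice were below the control median, and all 8 were inside the control range. The difference was -0.26 (SE 0.10, limma p = 0.0153, adjusted p = 0.773). Its seed relative miR-28 lay just under the border, with a mean of 3.64 and a difference of -0.03 (SE 0.26).

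miR-467a belongs to a large rodent family of miRNAs made from an intron of Sfmbt2. Its level was 3.90, 4.61 and 4.94 in alcohol mice and 4.53, 4.90 and 5.22 in control mice. 5 of the 8 alcohol mice were inside the control range, and the other 3 were below it. The difference was -0.36 (SE 0.14, limma p = 0.0155, adjusted p = 0.773). Its p stayed under 0.05 whichever single mouse was left out, but was 0.0800 in a limma fit of all 40 arrays with the mouse as a random block and 0.0576 with the replicate block.

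miR-106b, miR-93 and miR-25 are cut from a single transcript inside Mcm7, a gene of DNA replication. For miR-106b, alcohol mice had 6.29, 6.85 and 7.50, and control mice 6.93, 7.20 and 7.51. 5 alcohol mice were below every control and 3 were inside the control range. Its difference was -0.27 (SE 0.12, limma p = 0.0324, adjusted p = 0.773). The other products of the transcript gave -0.02 (SE 0.11) for miR-93 and -0.33 (SE 0.29, mean 3.71) for miR-25.

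miR-411, a member of the imprinted Dlk1-Dio3 cluster that is active mainly in brain, was measured at 6.23, 6.72 and 6.94 in alcohol mice and at 6.32, 6.91 and 7.27 in control mice. 7 of the 8 alcohol mice were below the control median. The difference was -0.25 (SE 0.11, limma p = 0.0413, adjusted p = 0.773). miR-3099 had a difference of -0.38 (SE 0.17) and miR-1843b-5p one of -0.24 (SE 0.10), with ranges that overlapped likewise.

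miR-187 had the largest difference of the 4 higher miRNAs. Its level was 5.66, 6.62 and 7.94 in alcohol mice and 5.57, 6.05 and 6.90 in control mice. Alcohol mouse 8 was the highest, and 5 of the 8 alcohol mice were inside the control range. The difference was 0.60 (SE 0.23, limma p = 0.0168, adjusted p = 0.773), and without alcohol mouse 8 it was 0.41 (p = 0.0514). The other arm of the same hairpin, miR-187-star, singled out after its values were seen, had a mean of 2.09 and a difference of 0.64 (SE 0.27).

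miR-92a lies in the cluster from miR-17 to miR-92a on chromosome 14, which promotes cell division. The same mature sequence also lies on chromosome X, so its probe set cannot be assigned to either place. miR-92b comes from a separate gene with the same seed. miR-92a stood at 4.90, 5.13 and 5.51 in alcohol mice and at 4.38, 4.97 and 5.19 in control mice. miR-92b stood at 6.84, 6.996 and 7.68 in alcohol mice and at 6.39, 6.90 and 7.23 in control mice. The lowest values in both came from control mice and the highest from alcohol mouse 2. Differences were 0.25 (SE 0.11, limma p = 0.0402, adjusted p = 0.773) for miR-92a and 0.26 (SE 0.12, p = 0.0408, adjusted p = 0.773) for miR-92b. Without alcohol mouse 2 the p of miR-92b was 0.120 and that of miR-92a 0.101. miR-5128, the remaining one, had a difference of 0.35 (SE 0.15), with 4 alcohol mice above every control.

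**Figure D2:**
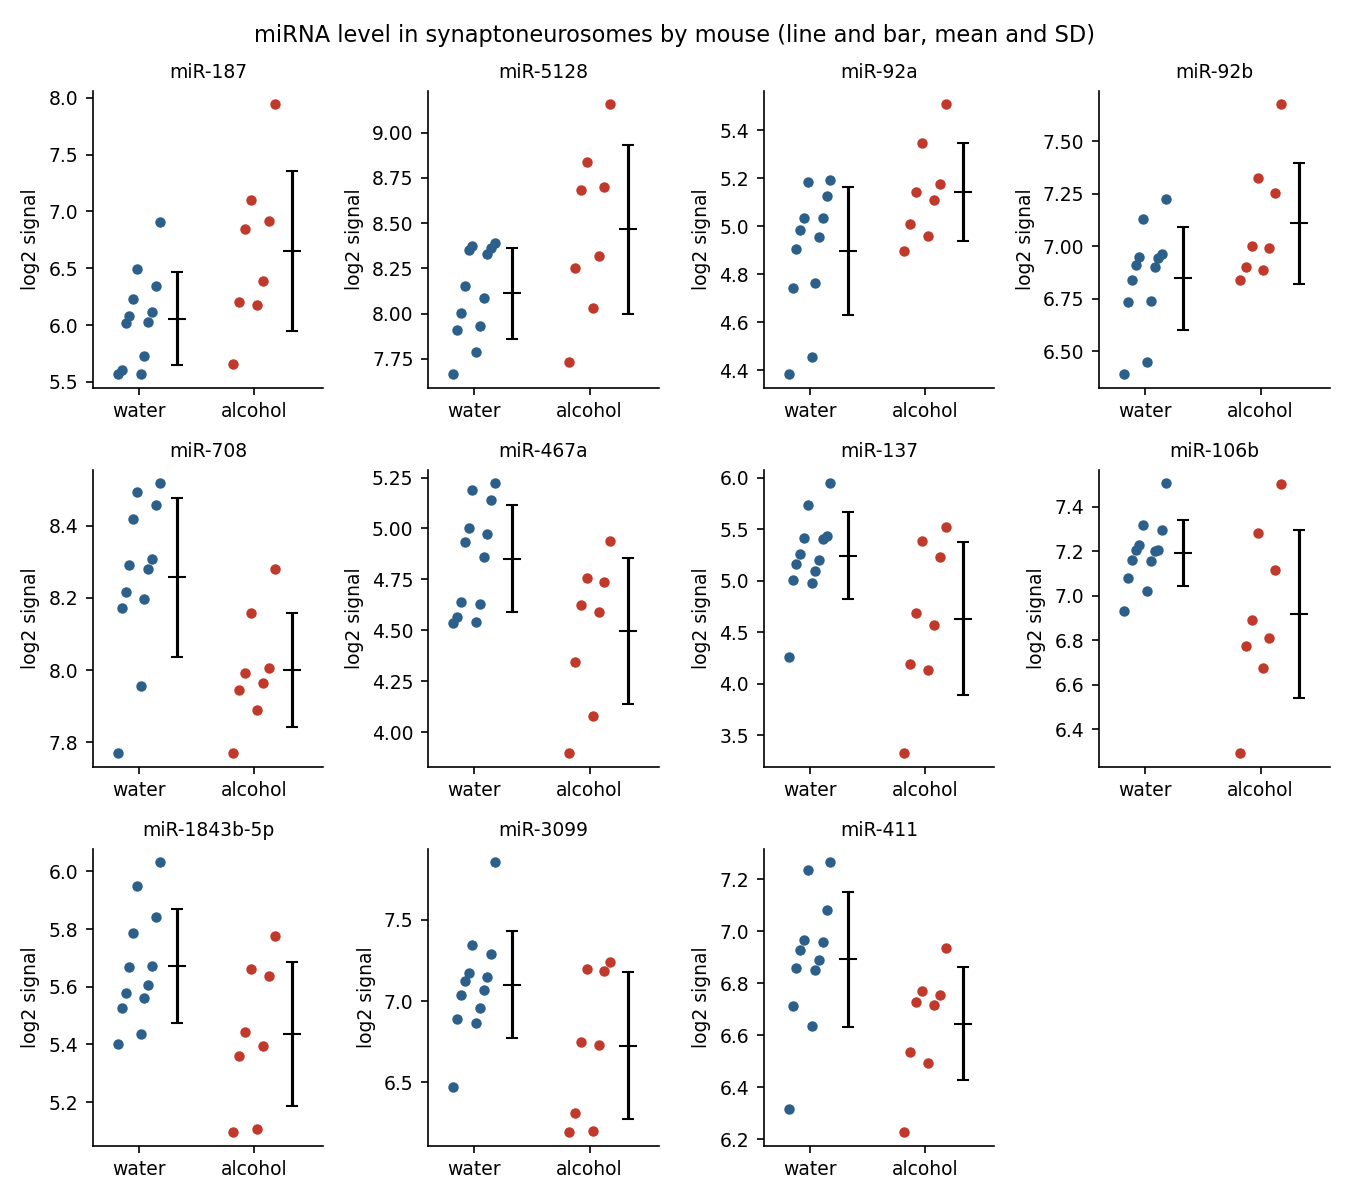
Each point is the log2 signal of 1 mouse in SN, for the 11 miRNAs with a mean over 4 and an unadjusted p under 0.05; control mice (water, n = 12) are blue and alcohol mice (n = 8) red, and the black mark and bar are the mean and SD. The ranges of the groups overlap in every panel, and alcohol mouse 8 is the high point for miR-187 at 7.94.

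The next miRNAs by p, over 4 and with an unadjusted p of 0.05 or more, were miR-1931, miR-193b, miR-346-star, miR-151-3p, miR-486 and miR-5100 among the higher, and miR-331-3p, miR-29a and miR-204-star among the lower. Their differences ran from -0.30 for miR-204-star to 0.55 for miR-1931 (SE 0.27). miR-486, made in red blood cells, had a difference of 0.23 (SE 0.13). All 8 alcohol mice were below the control median for miR-204-star.

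Near the floor, the 3 of smallest p on each side were miR-466n-3p, miR-26a-2-star and miR-509-3p (higher) and miR-344c, miR-1187 and miR-1895 (lower). miR-466n-3p had the smallest p of all 1111 probe sets (limma p = 0.000383, adjusted p = 0.426). Its level was 0.95, 1.33 and 1.62 in alcohol mice and 0.32, 0.68 and 1.26 in control mice, and all 8 alcohol mice were above the control median. miR-344c stood at 1.65, 2.19 and 2.78 in alcohol mice and at 2.22, 3.17 and 3.86 in control mice, a difference of -0.75 (SE 0.20, adjusted p = 0.488). Values so close to the floor carry little signal from the RNA itself, so these differences have a weaker footing than those over 4.

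Among 81 probe sets of the miR-297, miR-466, miR-467 and miR-669 families, many of which are made from the Sfmbt2 intron, 3 were higher and 8 lower at an unadjusted p under 0.05, beside 2.07% higher and 3.78% lower over the 1111 probe sets, and 0 passed after adjustment by limma. This family was looked at after its values were seen. miR-466f-3p had the largest difference of any probe set with an unadjusted p under 0.05, -1.22 (SE 0.49, adjusted p = 0.773). Its mean of 3.39 was nearer the floor, and 4 of the 8 alcohol mice were inside the control range. In TH its difference was 0.67 (SE 0.43). Only 2 of the 81 had a mean over 4, and a lower border of 2 is used for what follows. Over the 12 members with a mean over 2 the median difference was -0.28, and 10 were below 0, beside a median of -0.06 and 229 below 0 of 363 probe sets over 2. Most of these 12 lay nearer the floor. Their sequences were not compared, so they may not be separate measurements. These members also scattered more, with a median SD within groups of 0.67 against 0.39. Per mouse, the mean level of the 12 was 1.99, 2.66 and 3.09 in alcohol mice and 2.29, 2.93 and 3.35 in control mice, so the groups overlapped. In TH the median difference of the same members was 0.07.

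Groups of miRNAs known from neurons, synapses and other cells were set beside the 246. Over these the median difference was -0.04, with 97 above 0 and 149 below. Quantile normalization gave 119 above and 127 below, and centring each array on its median 111 and 135, so the lean of the deposited values to the lower side depends partly on scaling. No list had a member at an adjusted p under 0.05 by limma. Counts of list members at an unadjusted p under 0.05 stand beside 2.07% higher and 3.78% lower over all 1111 probe sets.

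The let-7 family, which holds back growth and is abundant in neurons, had 8 members over 4, and 7 of them were above 0 as deposited and under both other scalings. Their median was 0.10 (0.15 after quantile normalization and 0.13 after centring), from -0.10 for let-7e to 0.24 for let-7f (SE 0.20). These 8 share a seed, and probes for close relatives can take up each other's RNA, so they may not be separate measurements. let-7c and let-7b, the brightest, had 0.09 (SE 0.09) and 0.03 (SE 0.08). Without alcohol mouse 2 the let-7c difference was 0.001. 0 of the 10 measured members of the family reached an unadjusted p under 0.05.

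Of 16 neuron-enriched miRNAs over 4, 12 were below 0 with a median of -0.09, and 11 under either other scaling, with medians of -0.07 after quantile normalization and -0.06 after centring. miR-124 had a difference of -0.04 (SE 0.05), with 13.3 to 13.4 in alcohol mice and 13.4 to 13.5 in control mice. miR-132, which neuronal activity induces through CREB, had -0.003 (SE 0.07), and its cluster partner miR-212-3p -0.09 (SE 0.08). miR-9-star had -0.28 (SE 0.20) and miR-9 0.24 (SE 0.26), 2 arms of one hairpin with differences of opposite sign. miR-488, near the floor with a mean of 0.74, was the other member at an unadjusted p under 0.05 beside miR-137.

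Among 19 miRNAs reported in dendrites or synaptic fractions, 15 were below 0 as deposited and 13 under either other scaling, with a median of -0.11. Quantile normalization moved that median to -0.06 and centring to -0.08. miR-134, which represses Limk1 in dendrites, had -0.16 (SE 0.12). miR-138, which represses a depalmitoylating enzyme at spines, had -0.04 (SE 0.09). miR-26a and miR-125b-5p, the brightest of the list, had -0.09 (SE 0.07) and 0.03 (SE 0.07). miR-137, which stands in this list too, was its 1 member at an unadjusted p under 0.05. Other members below 0 are shared as well. miR-132 and miR-9-star are also in the neuron-enriched list, and miR-29a, miR-29b and miR-30a in that of miR-29 and miR-30. miR-134, miR-379, miR-329, miR-485 and miR-487b are also in the Dlk1-Dio3 list. The counts of these lists are therefore not separate observations.

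The Dlk1-Dio3 cluster from miR-379 to miR-410 had 22 members over 4, and 16 were below 0 (14 after quantile normalization and 15 after centring), with a median of -0.11 (-0.08 and -0.09 under these scalings). miR-379, at one end of the cluster, had -0.15 (SE 0.08), and miR-410, at the other end, -0.16 (SE 0.10). miR-369-5p had the largest size, -0.42 (SE 0.26). Its level was 2.59, 4.90 and 5.40 in alcohol mice and 4.69, 5.04 and 5.60 in control mice, so the medians lay closer together than the means. miR-487b and miR-541, the brightest, had -0.11 (SE 0.08) and 0.001 (SE 0.09). 1 member was higher and 1 lower at an unadjusted p under 0.05 (miR-369-3p, near the floor, and miR-411).

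The 3 members of the miR-29 seed family, which represses collagens, had differences of -0.21 (SE 0.11) for miR-29a, -0.13 (SE 0.24) for miR-29b and -0.28 (SE 0.15) for miR-29c. Without alcohol mouse 2 the difference of miR-29b was 0.12, so its direction rests on that mouse. Together with miR-30, 7 of 8 were below 0 (6 after quantile normalization), with a median of -0.16 (-0.10 after quantile normalization and -0.14 after centring), and 0 reached an unadjusted p under 0.05. This cluster of miR-17 and its paralogs had 7 members over 4, 6 of them below 0 (5 under either other scaling), with a median of -0.09. After quantile normalization that median was -0.01, and after centring -0.07. It held miR-106b on the lower side and miR-92a on the higher. miR-106b also had relatives by seed over 4 at -0.20 (miR-106a and miR-20a, SE 0.18 and 0.12) and -0.03 (miR-17, SE 0.09). miR-18a, near the floor with a mean of 2.64, had -0.62 (SE 0.23).

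Of 8 glial miRNAs over 4, 6 were above 0 (5 after quantile normalization), with a median of 0.05 (0.06 after quantile normalization and 0.07 after centring). miR-23b and miR-23a, abundant in astrocytes, had 0.003 (SE 0.07) and 0.02 (SE 0.09). miR-219-3p, of oligodendrocytes, had 0.33 (SE 0.23), and miR-219-5p, near the floor with a mean of 0.81, had 0.02 (SE 0.15). The 2 members over 4 below 0 as deposited were miR-27a, with -0.21 (SE 0.14), and miR-27b, with -0.10 (SE 0.11). miR-143, among those above 0 with 0.07 (SE 0.17), is also in the vessel list. miR-155 and miR-21, which rise in activated microglia, were near the floor at means of 1.41 and 1.28, with -0.02 (SE 0.10) and -0.08 (SE 0.20). The miR-99, miR-100 and miR-125 list had 6 members over 4 with a median of -0.06, 4 of them below 0. That median was -0.01 after quantile normalization and -0.03 after centring.

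miRNAs named in earlier alcohol studies had 21 members over 4, 11 above and 10 below 0 (12 and 9 under either other scaling), with a median of 0.01 (0.05 after quantile normalization and 0.03 after centring). 0 of 32 measured were higher and 3 lower at an unadjusted p under 0.05: miR-137, miR-411 and miR-203, the last near the floor. Over the 1111 probe sets 2.07% were higher and 3.78% lower by that measure. miR-206, which represses Bdnf in rat cortex, was near the floor with a mean of 1.14, at 0.40, 0.75 and 1.81 in alcohol mice and 0.60, 1.10 and 3.48 in control mice. Its difference was -0.54 (SE 0.27, limma p = 0.0628, adjusted p = 0.784). miR-30a, which also represses Bdnf, had -0.08 (SE 0.13). The muscle list had 0 members over 4 and 0 of 6 measured at an unadjusted p under 0.05.

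**Figure D3:**
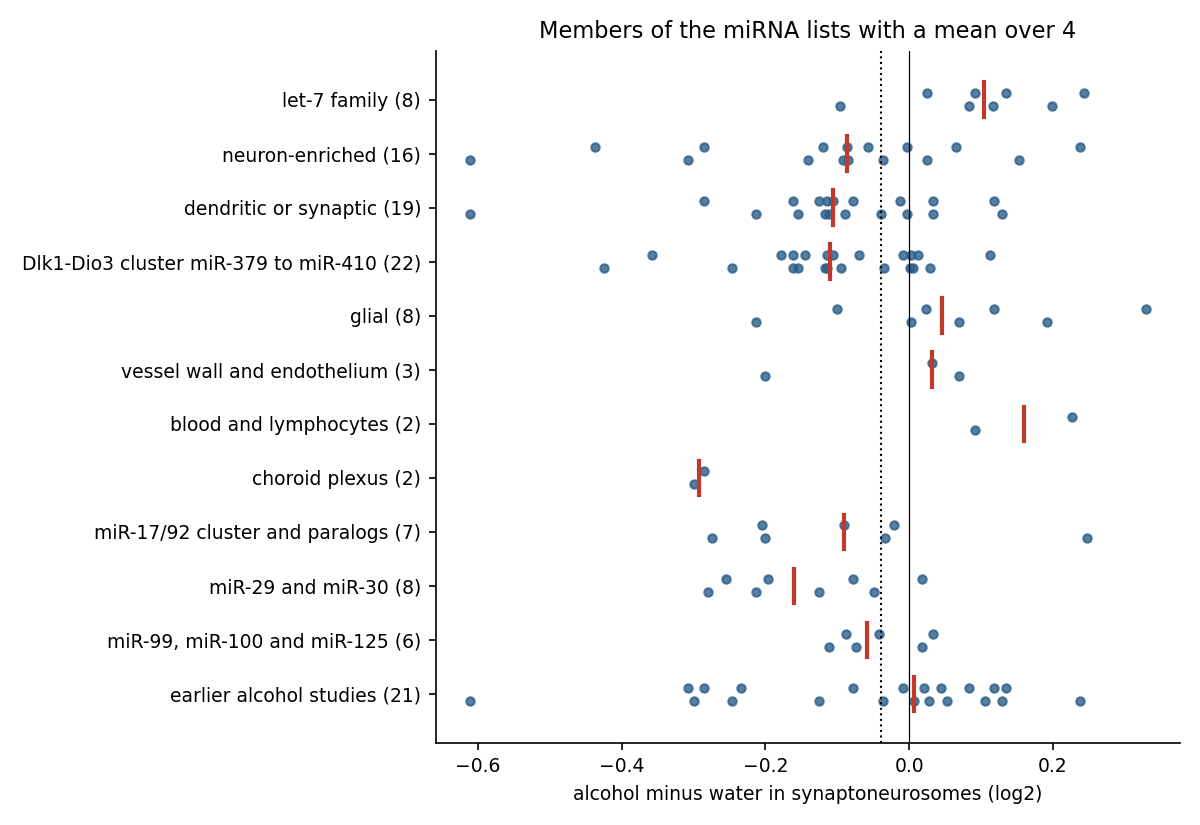
Each blue point is the difference alcohol minus control in SN (log2) of 1 list member with a mean over 4, red bars are list medians, and the dotted line is the median of all 246 probe sets, -0.04. Numbers in brackets count the members; the let-7 median is 0.10 and that of the Dlk1-Dio3 cluster -0.11.

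Markers of cells that could accompany SN were read in each mouse. Of the 14 choroid plexus miRNAs, miR-204 and miR-34c were over 4 and 8 had a mean under 1. Of this list miR-34b-5p, near the floor, had an unadjusted p under 0.05 (difference -0.61, SE 0.23). Their mean level per mouse was 1.28, 1.68 and 1.82 in alcohol mice and 1.30, 1.76 and 2.08 in control mice. The 4 vessel miRNAs averaged 4.59, 5.07 and 5.69 in alcohol mice and 4.64, 5.00 and 5.24 in control mice. The 7 blood miRNAs averaged 2.22, 2.35 and 2.54 in alcohol mice and 1.87, 2.29 and 2.37 in control mice, a difference of 0.14 (two-sided exact permutation p = 0.0340, adjusted p over 5 array measures = 0.170). After quantile normalization that difference was 0.17 with an adjusted exact permutation p of 0.0143. Only 2 of the 7, miR-486 and miR-150, had a mean over 4, so most of the members behind that average lay nearer the floor. miR-451, of red blood cells, had a mean of 3.14 and a difference of 0.41 (SE 0.25). miR-142-3p, of leukocytes, was near the floor with a mean of 0.44. miR-150 had 0.09 (SE 0.27), and miR-223, also near the floor, -0.01 (SE 0.13). The part of blood in the miR-486 value was not tested. In such bulk fractions, fewer cells or synapses of a type and less RNA in each cannot be told apart.

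miR-34c had the largest scatter within groups of the 246, with an SD of 0.96. It stood at 3.72, 4.64 and 5.73 in alcohol mice and at 2.76, 5.03 and 6.43 in control mice, a difference of -0.30 (SE 0.40). Controls 2, 12 and 13 were the 3 highest in SN and in TH alike. Across the 20 mice SN and TH levels went together, with Pearson's r = 0.785 (permutation p = 6e-05) and Spearman's rho = 0.842 (permutation p = 1e-05, the smallest the 100000 resamples can give). Without the 2 mice farthest from the median r was 0.850, and within groups it was 0.598 in alcohol and 0.822 in control mice. Adjusted over 6 such relations the values were 0.00036 and 6e-05. Without controls 12 and 13 the alcohol difference of miR-34c was -0.08 (limma p = 0.846).

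The other 4 most variable miRNAs, miR-1894-5p, miR-5107, miR-204 and miR-218, had r between -0.20 and 0.39 (unadjusted permutation p from 0.088 to 0.87). miR-187, added to this set after its values were seen, had r = 0.729 (adjusted permutation p = 0.0023) and rho = 0.510 (adjusted permutation p = 0.068). Without the 2 mice farthest from the median r was 0.402. Alcohol mouse 8 was high in both fractions, at 7.94 in SN and 8.18 in TH.

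Beside SN, the same contrast was read in TH. There 77 probe sets (6.93%) had an unadjusted p under 0.05 and 0 an adjusted one by limma, with a smallest adjusted p of 0.220. To ask whether the alcohol difference departed between fractions, SN minus TH was taken within every mouse and fitted alike. 0 probe sets passed by limma (smallest adjusted p 0.371), and 86 (7.74%) had an unadjusted p under 0.05. Kept to means over 4, the unadjusted counts were 29 in TH and 24 for the gap. In SN that count was 11, where the threshold alone gives 12.3 for 246 probe sets. Taken over the 246 probe sets, deviations of a mouse's SN from the group mean correlated with those of its own TH at -0.35 to 0.57, and its own TH was the best match for 3 of 20 mice. miR-5100 led those over 4, with 0.35 (SE 0.20) in SN and -0.74 (SE 0.18) in TH, a gap of 1.10 (SE 0.29, limma p = 0.00116, adjusted p = 0.371). In TH its level was 4.10, 4.44 and 4.75 in alcohol mice and 4.31, 5.03 and 6.16 in control mice. The next were miR-381-star, with a gap of 0.71 (SE 0.22), and miR-434-5p, with 0.45 (SE 0.15), both from the Dlk1-Dio3 region. For miR-106b, the TH difference was 0.16 and the gap -0.43 (adjusted p = 0.451). miR-137 had -0.27 in TH, and miR-187 0.42.

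**Figure D4:**
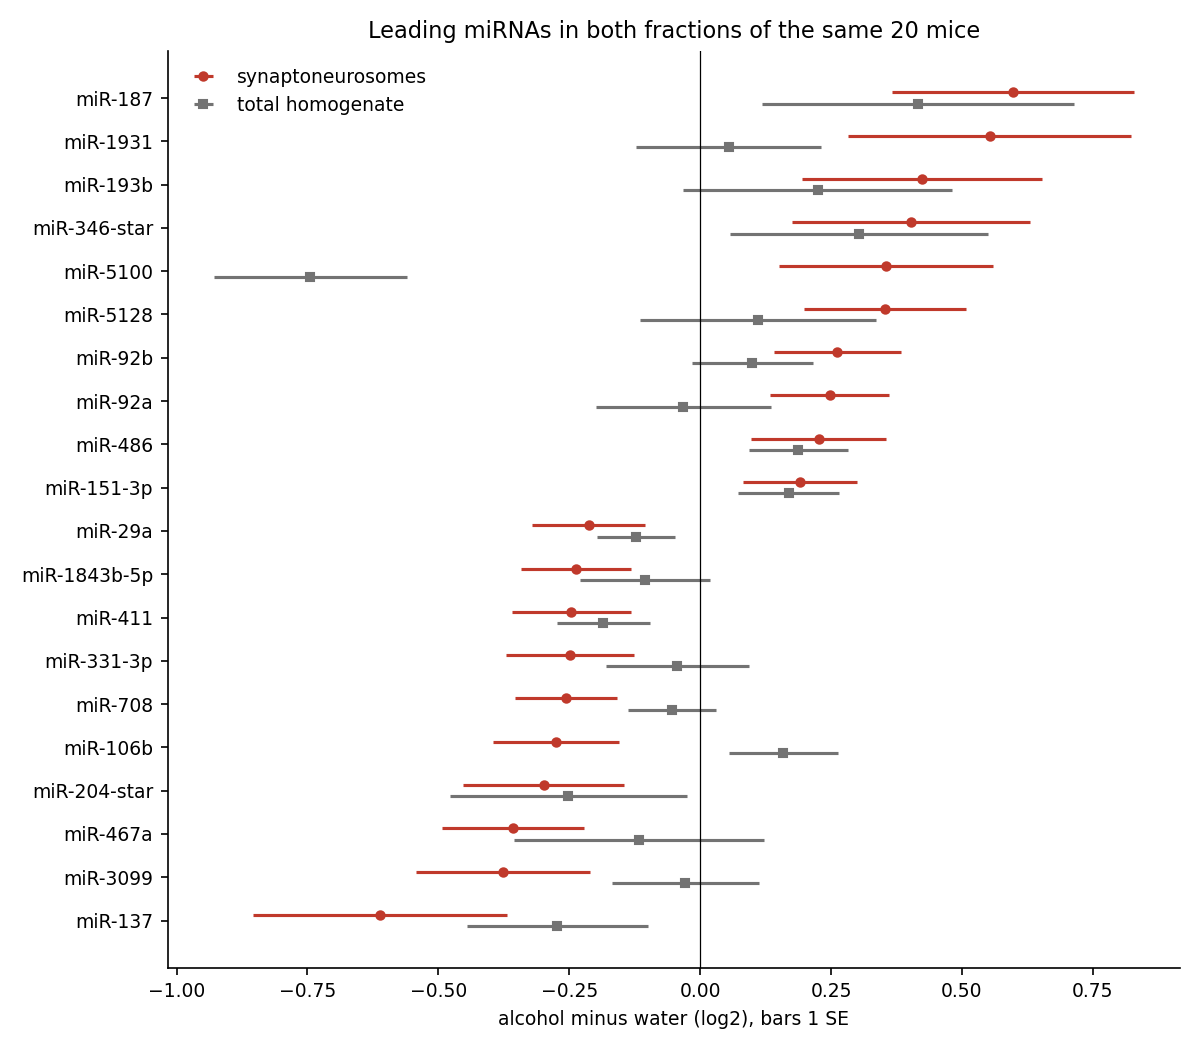
Differences alcohol minus control (log2) with 1 SE are shown for the 20 leading miRNAs over 4, in SN (red circles) and in TH (grey squares) of the same 20 mice. The fractions lie on opposite sides of 0 for miR-5100 (0.35 and -0.74), miR-106b (-0.27 and 0.16) and miR-92a (0.25 and -0.03).

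Scatter between mice had a common direction along which the groups overlapped, and its relation to the groups was not tested. The first principal component of the 246 probe sets held 24.5% of the variance and the second 15.8%. On the first, alcohol mice ran from -4.99 to 3.60 with a median of -1.78, and control mice from -3.87 to 3.73 with a median of 0.74. miR-218, miR-146b, miR-137 and miR-31-star weighed most on its positive side, and miR-5107, miR-1196, miR-1931 and miR-1894-5p on its negative side. Scores went with the array medians (r = 0.694 over 20 arrays). miR-137 and miR-1931, which stand among the 20 leading miRNAs, are thus also among those that vary most along this axis. With this component as a covariate, 0 probe sets had an adjusted p under 0.05 by limma and 20 of the 246 an unadjusted one.

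Base composition moved with the component too. This was looked at after the data were seen. A first match by name gave a RefSeq mature sequence to 192 of the 246 probe sets (78.0%), under the 80% set for such a description, and 6 further names were then added, giving 198 (80.5%). The arms behind older names were assigned by hand. Across these miRNAs, the weight on the component correlated with the GC percent of the sequence at r = -0.679 (rho = -0.715; r = -0.677 before the names were added), where the points share the same 20 arrays. A pair of sequences shows both sides of that scale, both printed with the seed in capitals.
miR-218 (chr5:48223966-48223986, + strand and chr11:35616840-35616860, + strand, GC 38.1%): uUGUGCUUgaucuaaccaugu
miR-92b (chr3:89227126-89227147, - strand, GC 63.6%): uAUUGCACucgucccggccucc
Per array, the correlation of the deviations from the median array with GC percent ran from -0.597 to 0.444 in alcohol mice and from -0.358 to 0.512 in control mice. Its median was 0.275 in alcohol mice and -0.139 in control mice, and the ranges overlapped. The alcohol difference itself correlated with GC percent at r = 0.205 in SN and 0.406 in TH. These are descriptions, and the part of base composition in any single difference was not tested.

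**Figure D5:**
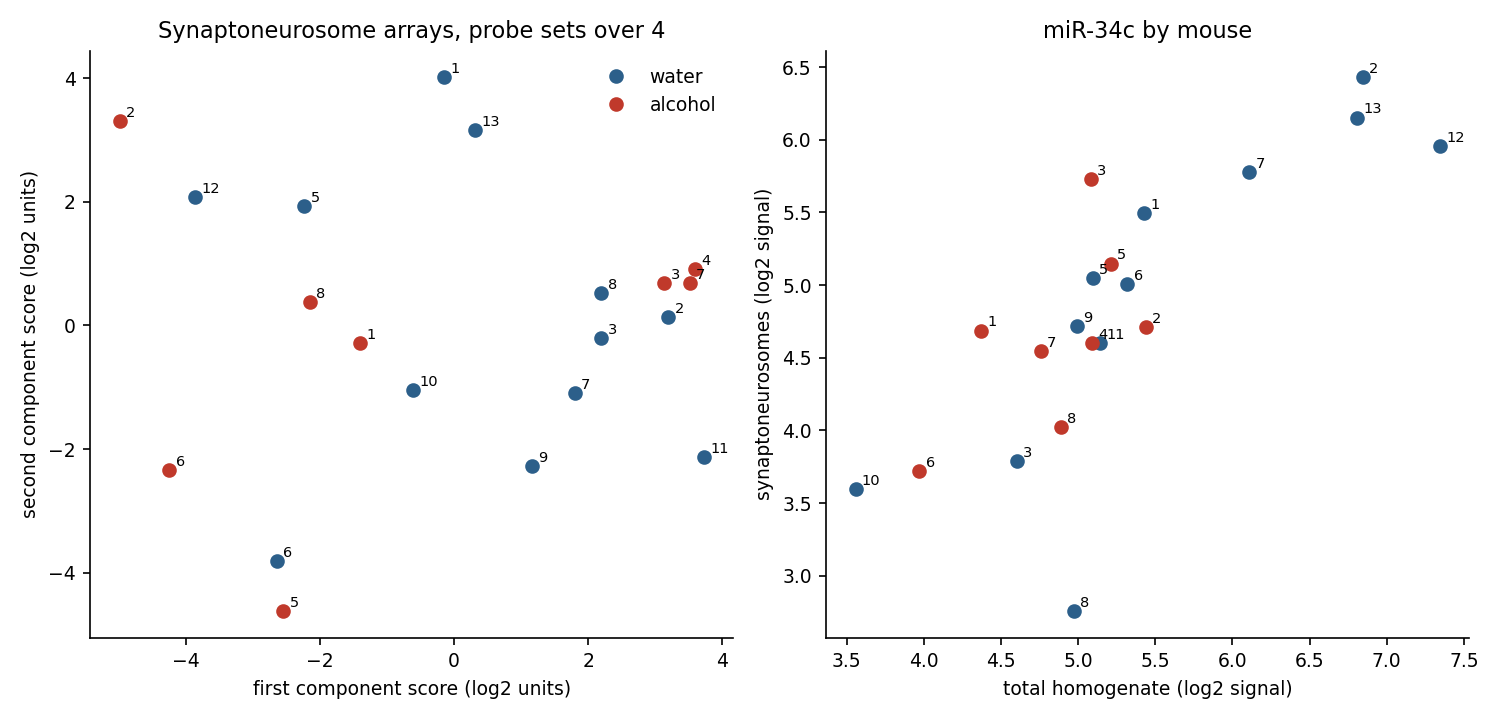
Left, each point is 1 SN array on the first and second principal components of the 246 probe sets over 4 (log2 units), with control mice (water) blue and alcohol mice red, numbered as mice. Right, miR-34c in SN against TH by mouse (log2 signal), where controls 2, 12 and 13 are highest on both axes and r is 0.785.

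Some of these miRNAs lie in introns of genes whose mRNAs were measured in SN of the same study, on Illumina arrays of 8 alcohol and 13 control mice. Of 45 host genes listed, 36 were measured. A host with several probes, such as Tenm4 and Egfl7 with 2 each, is given by its brightest probe alone. On that probe the differences of the 36 hosts were above 0 for 17 and below 0 for 19. 0 of the 17514 mRNA probes had an adjusted p under 0.05 by limma, while 1878 (10.7%) had an unadjusted one, as did 8 of the 36 hosts (smallest adjusted p 0.417). Tenm4, host of miR-708, had -0.20 (SE 0.12). Mcm7, host of miR-106b, had 0.003 (SE 0.02). Its probe had a mean of 7.84, among the dimmest of these hosts, beside 11.1 for Tenm4. The mRNA scale is compressed at low signal, so this small difference and SE do not show an unchanged host. Egfl7, an endothelial gene and host of miR-126, had 0.26 (SE 0.10), while miR-126-3p had -0.20 (SE 0.13). Nfyc, listed as host of miR-30c and miR-30e, had -0.20 (SE 0.07), beside 0.02 (SE 0.08) and -0.26 (SE 0.17) for these miRNAs. The array also names miR-30c-2-star, from another miR-30c hairpin, so the miR-30c value cannot be assigned to Nfyc alone. mRNA and miRNA differences were on separately normalized scales, so their sizes and errors cannot be compared with each other. Only their signs, and each difference against its own SE, can be set side by side.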

How the data were processed

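The miRNAs were measured on Affymetrix miRNA 3.0 arrays (miRBase version 17, per the labels). The submitters' processing notes name RMA, oligo, lumi and limma, without their order; the deposited miRNA values are log2. The deposited SN mRNA table, which names lumi, is on a log2-like scale compressed at low signal; the deposited bead signals, an intensity, served only to pair probes with symbols. Versions of the authors' tools and array scan dates were not given in the sources used here, so no array batch could be tested.

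Every probe set whose name marks a mouse mature miRNA was kept and none was filtered before fitting. The groups were compared with limma 3.58.1 in R 4.3.3 (lmFit, eBayes, Benjamini-Hochberg over 1111 probe sets, adjusted p under 0.05), unpaired. Intervals are 95%. Array measures used a two-sided exact permutation over the 125970 regroupings of 20 arrays, and relations across mice 100000 resamples. p-values across mice rest on separate animals, and the number of arrays limits the precision. Figures used Python 3.11.15 and matplotlib 3.10.9. The fits were tested on simulated data.

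The probe sets described, the 13 miRNA lists (let-7, neuron-enriched, dendritic or synaptic, Dlk1-Dio3, glial, vessel, blood, choroid plexus, the miR-17 cluster, miR-29 and miR-30, miR-99 with miR-100 and miR-125, muscle, earlier alcohol studies) and the host genes were chosen with earlier results of these data known. Named miRNAs were those at adjusted p under 0.05, the 10 of smallest p on each side over a mean of 4, 3 on each side at or below 4, 3 for the SN and TH gap, the 5 most variable, the 2 brightest of each list, and a fixed set. Others are said to be chosen after their values were seen, or are list members. Names are those of the array; arms were matched to RefSeq by name. Titles number mice within each group, and deviations of same-numbered mice correlated between -0.20 and 0.38, so the numbers were not taken as pairs. No 2 arrays were identical (highest r 0.988).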

Additional observations from a re-analysis of the deposited data

Results flagged for a closer look

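In 4 of 65 named miRNAs, 1 alcohol mouse stood apart from the other 7 in SN by more than Dixon's 95% limit; chance alone flags about 3.25 of 65. Alcohol mouse 2 accounted for 3 of them. Its let-7c level was 13.4, against 12.6 to 12.8 in the other alcohol mice and 12.8 in its own TH, and without it the difference was 0.001. Its miR-29b level was 5.17, against 6.69 to 7.58 in the others and 6.71 in its own TH, and without it the difference was 0.12 rather than -0.13. Its miR-206 level was 1.81, against 0.40 to 0.94, and without it the difference was -0.68 (limma p = 0.0202). Alcohol mouse 3 had 5.26 for miR-381-star, against 4.58 to 4.89, and without it the difference was 0.14. On the first principal component alcohol mouse 2 had the lowest score of the 20 arrays, -4.99.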

How the results depend on the processing

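The number of arrays and signals near the floor limit these results. No alternative gave a probe set an adjusted p under 0.05 in SN, in TH or for their gap: limma found 0 throughout, leave-one-out included. Counts at an unadjusted p under 0.05 did move. Over all probe sets it was 65, and 50 to 85 without a mouse; kept to means over 3, 4 or 6 it was 16, 11 and 7 by construction. Over the 246 it was 11, and 6 (without alcohol 8) to 23 (without alcohol 4) leaving out a mouse, with 22 without control 12, 17 without alcohol 7, and 7 without alcohol 1, alcohol 6 or control 7. It was 23 without controls 12 and 13, 7 at means over 6, and, in alternatives chosen after seeing the data, 20 with the first and 25 with both components as covariates; the cause was not tested. Quantile normalization gave 7 higher and 5 lower of 12, and centring 7 and 4 of 11, where the deposited values gave 4 and 7. The replicate block, over mice whose number is in both groups, gave 0 adjusted, 70 unadjusted and 18 of the 246. The gap between SN and TH had 86 unadjusted (7.74%), 77 to 98 without a mouse and 24 at means over 4. TH had 77 (6.93%), and 29 at means over 4. Both counts over 4 were larger than the 11 in SN. The blood measure, 0.14 (0.10 to 0.16 without a mouse), was 0.17 with adjusted exact permutation p = 0.0143 after quantile normalization. Leaving out a mouse moved the array median difference between -0.03 and -0.01, the count over 4 between -3.46 and -0.18, choroid between -0.11 and -0.02, and vessel between -0.05 and 0.11. Of 2217 values of the 65 named miRNAs under alternatives, 0 had an adjusted p under 0.05 (smallest 0.114) and 73 had the other sign. For the 11 leading ones over 4, 0 of 381 had the other sign. They were picked for a small p in the same arrays, so a change of sign was unlikely from the start. Leaving out a mouse raised the limma p above 0.05 in 9 fits for miR-411 and 8 each for miR-92a and miR-92b. For miR-708 and miR-467a it did so in 0 fits. Quantile normalization gave miR-411 a limma p of 0.121.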
